A study of Rattus norvegicus with 4 samples.

Results

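The 14-3-3 proteins were followed here in the mesenteric white adipose tissue of female Wistar rats 48 h after the first of the daily gavages of oleoyl-estrone (OE), the oleic acid ester of estrone, or of oil alone. The members were all spots of the array whose gene name contained "14-3-3", a rule that used no measured value. It found 6 of 1185 spots, namely zeta/delta (GenBank D17615), gamma (S55305), eta (D17445), theta, also called tau (D17614), epsilon (M84416) and beta/alpha (S83440). The name of the last spot also lists the words prepronerve growth factor RNH-1.

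The 14-3-3 proteins are small adaptors that act as dimers and bind other proteins at phosphorylated serine and threonine residues. By binding they hold a client in the cytosol, keep an enzyme active or inactive, or shield a phosphate group, and Raf kinases, the CDC25 phosphatases and the cell death protein BAD are textbook clients. In insulin-responsive cells such as adipocytes they bind the Rab GTPase-activating protein AS160 once AKT has phosphorylated it, a step in the movement of the glucose transporter GLUT4 to the cell surface. The isoforms are products of separate genes and can pair with each other.

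The comparison was between 2 groups. The OE group (n = 2 rats) received 10 μmol/kg of OE per day in 0.2 ml of sunflower oil by stomach cannula, and the control group (n = 2 rats) received the oil only. All rats weighed 220 to 230 g at the start and had free access to chow, and their age was not given in the sources used here. The study reported that OE-treated rats ate less than controls and ended at a lower percentage of their starting weight. Effects of OE and of lower food intake therefore cannot be told apart here. Each rat's total RNA, labelled with 33P, was hybridized to its own nylon membrane of cDNA spots, and the arrays are called control 1, control 2, OE 1 and OE 2. The tissue was taken whole, so that fewer cells of a type and less RNA per cell cannot be told apart.

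The quantity read from each spot was the adjusted intensity, which is the spot intensity minus the background of the array. The background lay between 54 and 61 on the 4 arrays and the median adjusted intensity between 9 and 22. The median spot of every array thus exceeded the background by less than the background itself. A spot is called detected here where this value reached 2 times the background, a limit between 108 and 122, which 152 to 246 spots of an array reached. The libraries stood apart in their cell type markers. The 4 adipocyte genes summed to 2251 array medians on control 2 and to between 267 and 521 on the other arrays, while the 7 leukocyte genes summed to 22.9 on control 2 and to between 117 and 226 elsewhere. On OE 2, and on no other array, 4 of 5 intestinal genes were detected, with a sum of 273 array medians against 1.44 to 3.14. The 2 mesothelial genes, WT1 and retinaldehyde dehydrogenase, were detected on control 2 alone. None of the 12 nerve genes or 6 pancreas genes was detected on any array. The part of these differences in the results below was not tested, except where values without an array are given.

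All 6 members lay above the median of every array, and none was below the detection limit on all 4. The zeta/delta and epsilon spots were detected on all 4 arrays, eta on 3, theta and beta/alpha on 2, the OE arrays, and gamma on control 2 alone. In all, 3 members were detected on each control array and 5 on each OE array. Among all 1185 spots the detected number was 152 and 178 for the controls, numbered in order, against 246 and 176 for the OE arrays. The limit was applied to unscaled values of arrays that differed in brightness. These counts therefore do not compare expression between the groups. The brightness of a spot depends on its probe, so that no member is compared with another in abundance.

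Zeta/delta, also described as a mitochondrial import stimulation factor subunit in the files, read 1288 on control 1 and 1369 on control 2, and read 2195 on OE 1 and 1577 on OE 2. Both controls were thus close together and both OE arrays brighter. Epsilon, named in the files as the other subunit of that factor, read 471 on control 1 and 702 on control 2, next to 893 on OE 1 and 698 on OE 2, and its groups overlapped. Both spots were at least 7.85 times the background on every array, which makes them the best measured of the family.

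Eta read 147 on control 1 and 97 on control 2, next to 209 on OE 1 and 195 on OE 2. Only the value of control 2 was below the detection limit, and both OE values were above both controls before scaling. Theta read 70 on control 1 and 43 on control 2, next to 149 on OE 1 and 147 on OE 2. Beta/alpha read 47 on control 1 and 69 on control 2, next to 135 on each of the OE arrays. For theta and beta/alpha the OE arrays differed from each other by at most 2 units and lay just above the limit, and both controls lay below it.

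Gamma went the other way. It read 38 on control 1 and 152 on control 2, next to 50 on OE 1 and 51 on OE 2, so that 1 control array was bright and the remaining 3 arrays were below the limit. Control 2 was also the array with the highest adipocyte and mesothelial sums. Without control 2 the log2 difference of gamma between OE and control was -0.06.

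**Figure D1:**
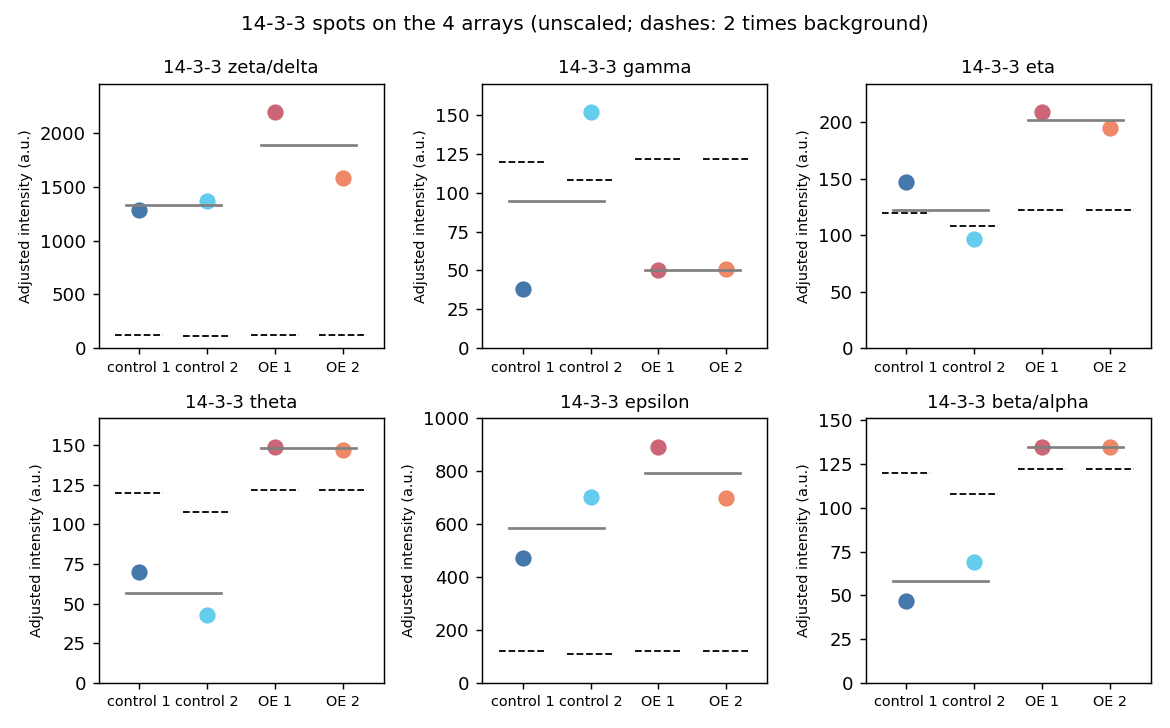
Adjusted intensity (arbitrary units, no scaling between arrays) of the 6 spots of the 14-3-3 family on the 4 arrays, 1 point per rat, with grey lines at the group means and dashed lines at 2 times the background of each array. Theta and beta/alpha cross the limit on the OE arrays alone, gamma on control 2 alone, and zeta/delta and epsilon stand far above it everywhere.

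The arrays differed in brightness, and without scaling 36.6% of the 922 genes tested had both OE values above both controls and 3.58% had both below. The first was so for 4 of the 6 members, zeta/delta, eta, theta and beta/alpha. The values were therefore divided by the 50th percentile of each array, the scaling that the study's methods describe. The divisor was 14 and 9 for the controls, numbered in order, and 22 and 17 for the OE arrays. After this step both OE values were above both controls for 14.1% of the 922 genes and below both for 15.8%, and 1 member, theta, was among the first and none among the second.

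In these units theta stood at 5.00 array medians on control 1 and 4.78 on control 2, next to 6.77 on OE 1 and 8.65 on OE 2. The group means were 4.89 ± 0.157 (SD, n = 2) without and 7.71 ± 1.33 (SD, n = 2) with OE, a ratio of 1.58, which was 1.54 against control 1 alone and 1.61 against control 2 alone. A ratio over 1.5 was reached by 18.9% of all genes. Both theta values of the controls were below the detection limit, so that the limit, and not the measured level, is their upper bound. With the controls set to the dimmest detected signal of their array, a bound in array medians could not be given because it fell under 1.

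Beta/alpha stood at 3.36 array medians on control 1 and 7.67 on control 2, next to 6.14 on OE 1 and 7.94 on OE 2. Its mean was 5.51 ± 3.05 (SD, n = 2) without and 7.04 ± 1.28 (SD, n = 2) with OE, a ratio of 1.28, and the groups overlapped through control 2. Its control values were below the detection limit too, and here as well the bound fell under 1. On this scale, though not on every other, eta was the most even member, with 10.5, 10.8, 9.50 and 11.5 array medians in the order of arrays above. Its mean was 10.6 ± 0.196 (SD, n = 2) without and 10.5 ± 1.39 (SD, n = 2) with OE, a ratio of 0.986.

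Zeta/delta stood at 92.0 array medians on control 1 and 152 on control 2, next to 99.8 on OE 1 and 92.8 on OE 2. Its mean was 122 ± 42.5 (SD, n = 2) without and 96.3 ± 4.96 (SD, n = 2) with OE, a ratio of 0.789. Epsilon had 33.6, 78.0, 40.6 and 41.1 array medians in the same order, with 55.8 ± 31.4 (SD, n = 2) without OE, 40.8 ± 0.331 (SD, n = 2) with OE and a ratio of 0.731. For both genes control 2 was the single high array and control 1 was no higher than either OE array, so that the ratio was 1.05 for zeta/delta and 1.21 for epsilon against control 1 alone, and 0.633 and 0.523 against control 2 alone. The OE arrays differed from each other by less than the controls did.

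Gamma stood at 2.71 array medians on control 1 and 16.9 on control 2, next to 2.27 on OE 1 and 3.0 on OE 2. Its mean was 9.80 ± 10.0 (SD, n = 2) without and 2.64 ± 0.514 (SD, n = 2) with OE. The ratio of 0.269 was the lowest of the family, and 18.3% of all genes had a ratio under 0.5. It was 0.971 against control 1 alone and 0.156 against control 2 alone. The SD of the controls was larger than the difference between the group means. Only 1 of the 2 control arrays had measured the gene above the detection limit, and no bound on the fold is given.

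**Figure D2:**
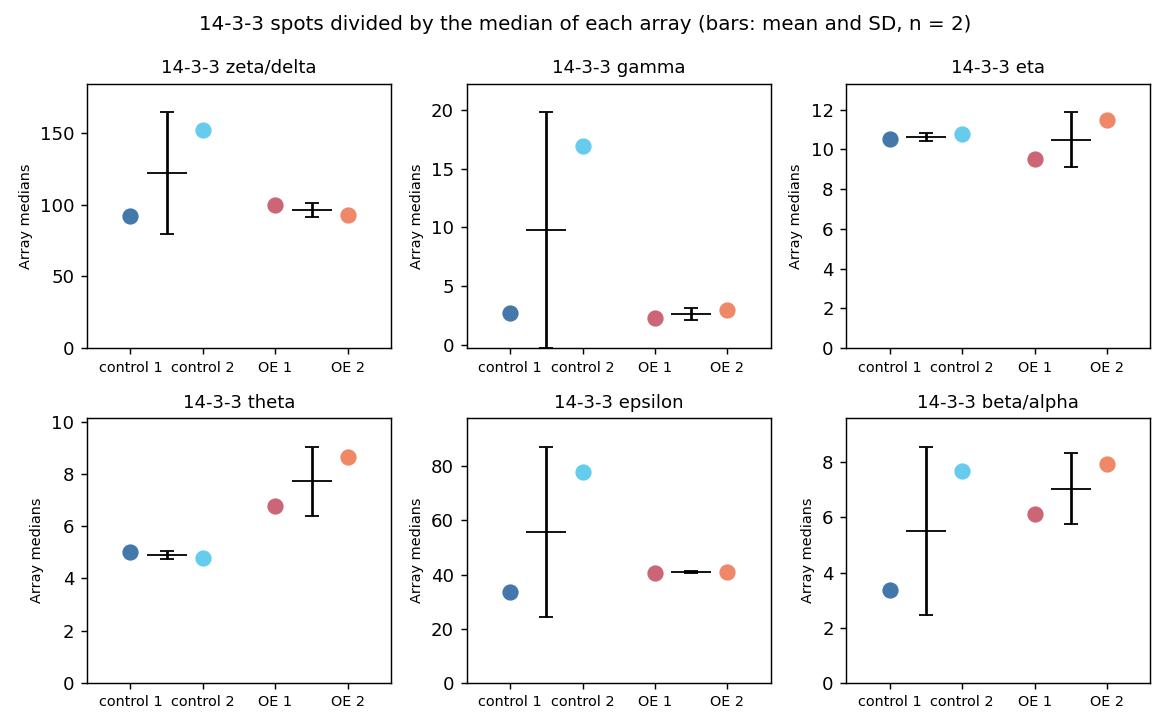
The same 6 spots after division by the median of each array, in array medians, with 1 point per rat and the group mean ± SD (n = 2) in black. Theta is the single member whose OE values of 6.77 and 8.65 both lie above its control values, and control 2 is the highest array for zeta/delta, gamma and epsilon.

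With limma none of the 6 members had an adjusted p under 0.05, as was so for 0% of the 922 genes tested, and none had an unadjusted p under 0.05, which 19 genes (2.06%) had. An exact test of 2 arrays against 2 cannot give a two-sided p under 0.333, so that none was run on single genes. The log2 difference, OE minus control, was 0.65 for theta (standard error 0.58, 95% interval -0.84 to 2.13) and 0.46 for beta/alpha (standard error 0.69, 95% interval -1.32 to 2.24). It was -0.03 for eta (95% interval -1.50 to 1.45), -0.30 for zeta/delta (95% interval -1.87 to 1.28) and -0.33 for epsilon (95% interval -2.09 to 1.43). Without OE 2, the array on which the intestinal genes were detected, theta had 0.47 and beta/alpha 0.27, and without control 1 beta/alpha had -0.14. Gamma had -1.37 (standard error 1.02, 95% interval -3.99 to 1.24). The intervals include a level over 2 times higher in OE-treated rats for each of the 6 genes, and one under 0.5 times that of controls for all but theta. The adjusted p of the members lay between 0.957 and 0.990. The median log2 difference of the 6 members was -0.16, beside -0.04 over all genes tested.

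The direction depended on the scaling for some members. Theta and beta/alpha had a log2 difference above 0, and gamma one below 0, with division by the 50th or 75th percentile, quantile normalization, scaling to the detected housekeeping genes or to the genes detected on all 4 arrays, and without scaling. Eta changed sign between them, with -0.20 after scaling to the detected housekeeping genes and 0.31 after quantile normalization. Zeta/delta and epsilon were below 0 in each of these but without scaling, where they had 0.49 and 0.46. The median of all genes moved as well, from -0.21 with the housekeeping genes to 0.74 without scaling. After scaling to the housekeeping genes, both OE values lay below both controls for zeta/delta, gamma and epsilon, as for 26.2% of all genes, and theta no longer had its groups apart. With this scaling 7.7% of all genes had both OE values above both controls.

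**Figure D3:**
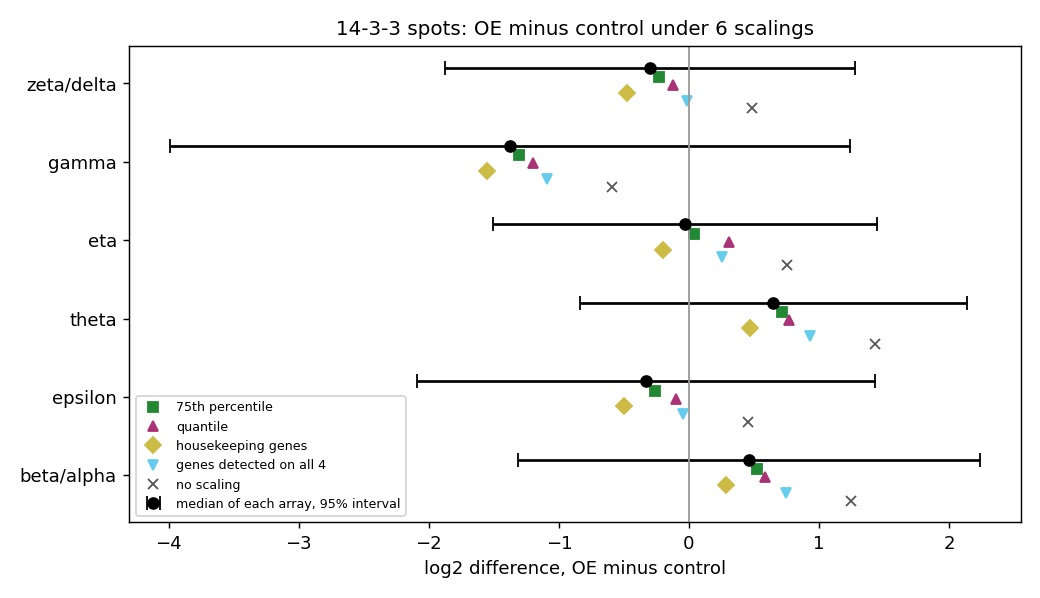
log2 difference (OE minus control) of each member under 6 ways of scaling the arrays, with the 95% interval of limma for division by the array median. Theta and beta/alpha stay to the right of 0 and gamma to the left under each of them, and every interval includes 0.

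Relative to the 100 spots detected on all 4 arrays, a reference chosen after the data were seen, zeta/delta was nearly level. It stood at 2.46 times their geometric mean on control 1 and 2.43 on control 2, next to 2.29 on OE 1 and 2.56 on OE 2, a ratio of 0.992 between the groups. Epsilon had 0.898, 1.25, 0.930 and 1.13 in the same order, a ratio of 0.962. On this scale theta had 0.134 and 0.0763 in the controls, next to 0.155 and 0.239 in the OE-treated rats, a ratio of 1.88. Beta/alpha had 0.0897 and 0.122 in the controls, next to 0.141 and 0.219 in the OE-treated rats, a ratio of 1.70. Both OE values thus lay above both controls for theta and beta/alpha, as they did for 20.2% of all genes. With the controls, all below the limit for these genes, set to their dimmest detected signal, the bound fell under 1 for both. The difference between control 1 and OE 1 was smaller than that between the OE arrays in both genes.

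A ratio of spots within an array needs no scaling, and the spot of zeta/delta, the brightest of the family on every array, served as the reference. Theta amounted to 5.43% of it on control 1 and 3.14% on control 2, next to 6.79% on OE 1 and 9.32% on OE 2. Beta/alpha amounted to 3.65%, 5.04%, 6.15% and 8.56% in the same order. Both measured values on the OE arrays thus lay above both on the controls, an order that 19.7% of the other 921 genes tested also had. The control values of theta and beta/alpha rest on spots below the detection limit, so that no fold is given. Eta amounted to 11.4% and 7.09% in the controls, next to 9.52% and 12.4% in the OE-treated rats, and epsilon to 36.6% and 51.3% against 40.7% and 44.3%, both with overlapping groups. Gamma amounted to 2.95% and 11.1% in the controls, next to 2.28% and 3.23% in the OE-treated rats, again with overlap.

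Theta and beta/alpha did not separate from each other, with a log2 ratio of theta to beta/alpha of 0.57 and -0.68 in the controls, next to 0.14 and 0.12 in the OE-treated rats.

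**Figure D4:**
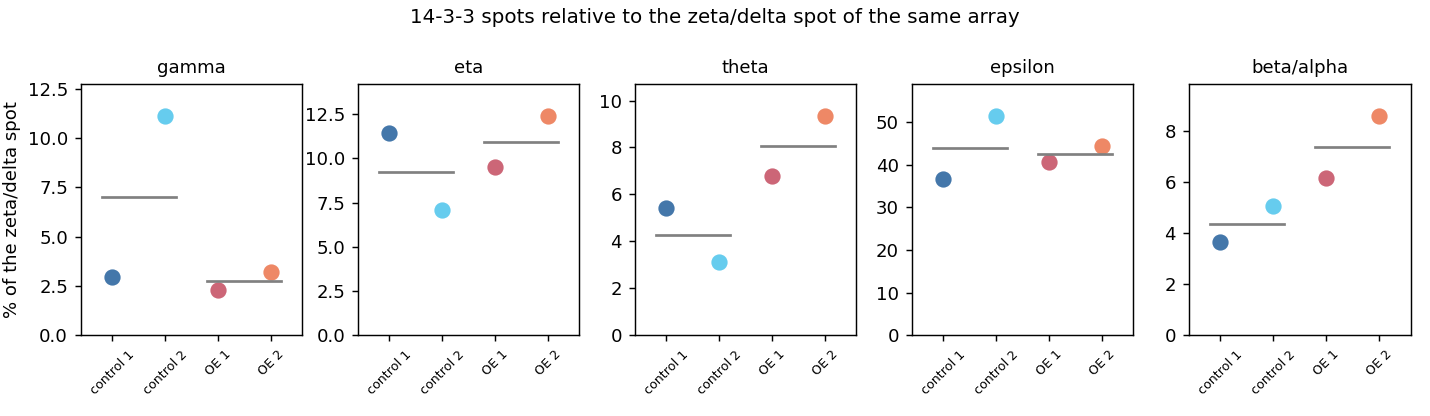
Adjusted intensity of 5 members as a percentage of the zeta/delta spot of the same array, with 1 point per rat and grey lines at the group means. Theta is at 5.43% and 3.14% in controls and at 6.79% and 9.32% in OE-treated rats, and beta/alpha shows the same order of groups, with the control spots of both genes below the detection limit.

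Because theta and beta/alpha shared this measured order of groups relative to zeta/delta, the promoters of their genes, Ywhaq and Ywhab, are shown. In array medians the groups of beta/alpha overlapped, and a common control of the 2 genes was not tested. Promoter sequences from RefSeq (GRCr8 build) were matched for 5 of the 6 family genes. That of Ywhaz was not used here. The sequences are the 250 bases before the annotated start, 5′ to 3′ on the strand of the gene, with capitals marking CCAAT boxes (CCAAT) and GC boxes (GGGCGG) found on either strand. The theta promoter lies at chr6:46694876-46695125 on the minus strand and the beta/alpha promoter at chr3:173078821-173079070 on the plus strand.
theta (Ywhaq): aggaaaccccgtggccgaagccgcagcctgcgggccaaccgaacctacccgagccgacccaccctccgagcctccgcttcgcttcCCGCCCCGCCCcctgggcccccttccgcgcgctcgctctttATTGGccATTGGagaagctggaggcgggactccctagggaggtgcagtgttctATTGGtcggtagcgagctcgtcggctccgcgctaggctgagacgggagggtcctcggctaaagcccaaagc
beta/alpha (Ywhab): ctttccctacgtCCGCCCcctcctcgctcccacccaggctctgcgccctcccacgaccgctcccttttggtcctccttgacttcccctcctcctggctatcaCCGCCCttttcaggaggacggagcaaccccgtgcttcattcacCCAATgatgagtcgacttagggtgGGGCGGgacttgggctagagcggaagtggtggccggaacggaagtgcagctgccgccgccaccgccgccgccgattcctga
The theta promoter holds 3 CCAAT boxes and 2 adjoining GC boxes, and that of beta/alpha 1 CCAAT box and 3 GC boxes. Among the other family genes, gamma has 2 CCAAT boxes and 4 GC boxes, eta 4 GC boxes and epsilon 1 GC box. Of 33469 promoters of the same length, 34.0% hold a CCAAT box and 30.5% a GC box. The estrogen response element, searched as GGTCA and TGACC with 3 bases of any kind between them, is in none of the 5 and in 0.0239% of all promoters. The cAMP response element core, searched as TGACGT, is in gamma and eta and in 6.95% of all. GC content was 68.0% for theta and 65.2% for beta/alpha, beside a median of 51.2%. These are matches of letters and were not tied to the measured levels.

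The array codes place gamma, eta, theta and epsilon side by side, from F04h to F04k, with zeta/delta at F04e and beta/alpha at F06c. The spots next to the bright members differed. LERK-2, the ephrin-B1 spot next to epsilon, read 0, 14, 18 and 3 on the 4 arrays in the order given above, next to 471 to 893 for epsilon. PKI-alpha, an inhibitor of cAMP-dependent protein kinase next to zeta/delta, had 7, 29, 70 and 29. The type II-beta regulatory chain of that kinase, on the other side of zeta/delta, had 32, 296, 194 and 96 and was detected on 2 arrays. PKI-beta, next to gamma, had 95, 2, 66 and 47. Beside beta/alpha, ADP-ribosylation factor 6, a small GTPase of membrane traffic, had 188, 60, 307 and 267, and a kinase C-binding protein on the other side had 1, 3, 9 and 6. ADP-ribosylation factor 6 thus had both OE values above both controls before scaling, as beta/alpha had. This order before scaling was that of 36.6% of the 922 genes tested. Signal spread between neighbouring spots was not tested. Signal shared between members through similar cDNA was not tested.

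**Figure D5:**
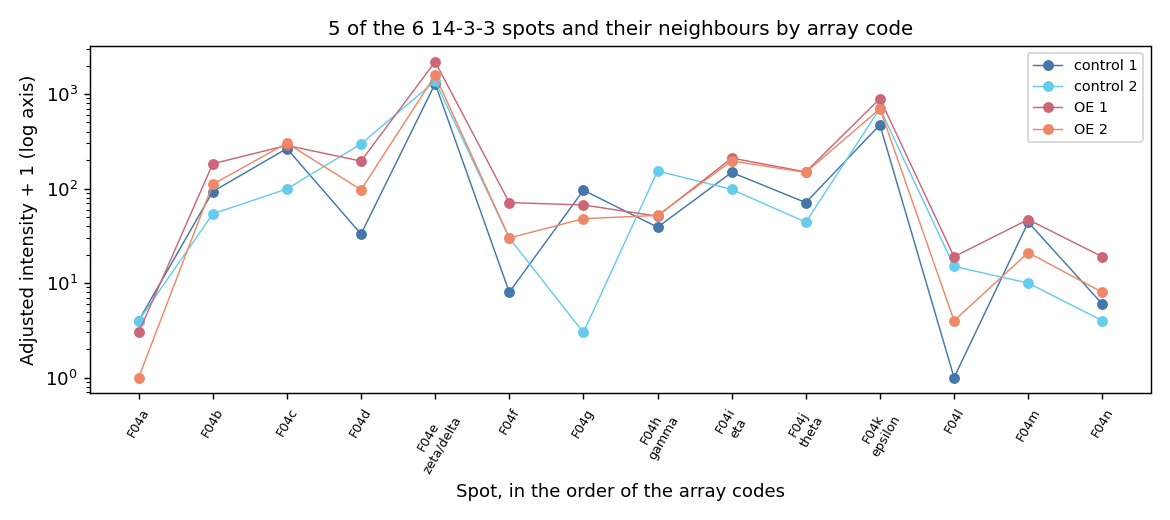
Adjusted intensity plus 1 (log axis) of the 14 spots of row F04 in the order of the array codes, with 1 line per array. The spots F04f and F04l, next to zeta/delta and epsilon, stay at or below 70, while gamma, eta, theta and epsilon lie side by side.

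Among the genes detected on all 4 arrays, the pattern most like that of zeta/delta was that of cytoplasmic beta-actin, a housekeeping gene of the cytoskeleton. The adjusted intensity of beta-actin was 9999, 10054, 16335 and 12090 on the 4 arrays in the order given above. Likeness was taken as the root mean square difference between the centred log2 values of the 4 arrays, which was 0.03 for beta-actin, beside a median of 0.39 over the 99 genes compared. The next were the alpha subunit of the stimulatory G protein, with 0.08, and ribosomal protein L44, with 0.10. For epsilon the nearest were cytochrome c oxidase subunit IV, a subunit of the respiratory chain, with 0.12, the same G protein subunit, with 0.16, and the TGF-beta type II receptor, with 0.17. With 4 arrays such likeness is a description only.

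The array also held 17 genes whose names matched a list of words for 14-3-3 clients and partners. Clients under other names were left out, and 16 of the 17 passed the filter on low values. With limma 0 of the 16 had an adjusted p under 0.05 and 0 an unadjusted p under 0.05. The median log2 difference of the 16 was 0.07, with 11 above 0 and 5 below. Over the 922 genes tested it was -0.04, with 449 above 0 and 473 below. Detected on all 4 arrays were A-raf, CDC25B, AKT2 and PKC-beta, and 10 of the 17 were detected on none.
A-raf, a kinase of the Ras pathway, read 253 on control 1 and 217 on control 2, next to 418 on OE 1 and 194 on OE 2, and a ratio of 0.721 in array medians. CDC25B, the phosphatase that activates cyclin-dependent kinases, had 440, 224, 614 and 374 and a ratio of 0.886. The groups of both genes overlapped.
AKT2, the kinase downstream of insulin whose substrates include 14-3-3 clients, read 217 on control 1 and 255 on control 2, next to 197 on OE 1 and 127 on OE 2. In array medians both OE values lay below both controls, with a ratio of 0.375 and a log2 difference of -1.36 (standard error 0.64, limma adjusted p = 0.957). Of the 922 genes tested, 15.8% had this order of groups and 18.3% had a ratio under 0.5. Among the 16 partners tested, 2 had both OE values below both controls and 1 had both above.
PKC-beta, a kinase abundant in lymphocytes and other leukocytes, read 2023 on control 1 and 202 on control 2, next to 2057 on OE 1 and 1263 on OE 2. It was dim on the array with the lowest leukocyte sum, and its ratio was 1.01. BAD stayed below the detection limit on every array, with 12, 13, 14 and 35.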

How the data were processed

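The samples, grouped by their labels, were adipose RNA of 2 control and 2 OE-treated rats, each on a nylon cDNA membrane of its own. The authors deposited intensity values from their image analysis, namely spot, background and adjusted intensity of 1185 spots, with no scaling between arrays. The files also held 12 columns of a second, unnamed array, which were not used. Here the adjusted intensities were scaled to the 50th percentile of the array they came from. Values under 0.235 array medians, which is the 10th percentile of the scaled values above 0, were set to that floor before the log2 step. The 922 genes with both arrays of 1 group or more above it entered limma 3.58.1, run in R 4.3.3 (group as the only term, Benjamini-Hochberg adjustment, threshold 0.05). limma took the place of the error model of the methods. The number of arrays limits the precision. With 1 array per rat, the spread behind the p-values holds differences of rat, dissection, labelling and membrane together. limma also drew the spread of each gene towards that of all genes tested.

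The named genes were all members, the partner list genes detected on all 4 arrays, the spots beside a member and the 3 genes nearest in pattern. BAD was named after its values were seen. The members and lists were chosen with earlier results of these data known. The alternatives were other scalings, background corrections, floors and filters, the series table, a replicate block and each array left out. Gene symbols of the family are the standard ones, and promoter sequences are from RefSeq (GRCr8).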

Additional observations from a re-analysis of the deposited data

How the results depend on the processing

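By limma 0 genes and 0 members reached the 0.05 threshold after adjustment, as reported or under any of 17 alternatives. The smallest adjusted p over them lay between 0.171 (without control 1) and 0.999, and the count of genes at an unadjusted p under 0.05 between 1 and 258. Among the alternatives with all 4 arrays, 1 member had an unadjusted limma p under 0.05 without background subtraction, beside 40 of 1137 genes. With normexp 2 members had one, beside 43 of 1105 genes, and in the other alternatives with all 4 arrays no member had one. The median log2 difference of the 6 members was -0.16, and became 0.62 without scaling and -1.12 with the series table. It also lay above 0 with quantile normalization (0.11), without background subtraction (0.29), with normexp (0.31) and with scaling to the genes detected on all 4 arrays (0.12). Over the arrays left out in turn it lay between -0.40 (without control 1) and 0.17 (without control 2). A group left with 1 array was taken to have the spread of the group of 2. The floors, the filters and the replicate block left the differences of theta and gamma as they were, and the series table holds the OE 1 value of another spot. Under the other scalings and background corrections, and without each array in turn, theta lay between 0.47 and 1.43 and gamma between -2.69 and -0.06. Zeta/delta, eta and epsilon turned to 0.49, 0.76 and 0.46 without scaling, to 0.24, 0.34 and 0.19 without background subtraction and to 0.26, 0.35 and 0.22 with normexp. Leaving out each array in turn gave -0.66 to 0.064 for zeta/delta, -0.93 to 0.28 for epsilon and -0.14 to 1.06 for beta/alpha, the lower value without control 1 and the upper without control 2. Eta also turned to 0.039 with the 75th percentile, 0.31 with quantile normalization, 0.11 without OE 1 and 0.26 with scaling to the genes detected on all 4 arrays, which was chosen after the data were seen. The cause was not tested. The deviations of same-numbered arrays from their group means correlated at 0.0495 across genes. The labels name no pairs of rats, and with 4 arrays this value cannot show whether there were any. With the replicate block the count was 0 and the median difference -0.16, with 17 genes in place of 19 at an unadjusted p under 0.05.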

Other observations

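The table of the whole series, which carries row names without gene names, held other OE 1 values for the whole family than the file of that array. Of its rows, 933 were matched to a spot through the values of the other 3 arrays, and 240 of these had another OE 1 value. In 239 of the 240 it was the value of the spot before in the order of the array codes, and the remaining one was empty. All matched rows that differed lay in 1 stretch, which began at spot E07c, the first spot after a blank line that the file of OE 1 alone holds between its spots. The 6 members lie in this stretch. The table thus gave OE 1 a value of 194 for zeta/delta in place of 2195, the value of the regulatory subunit of cAMP-dependent protein kinase next to it. It gave 50 for eta in place of 209, 209 for theta in place of 149, 149 for epsilon in place of 893, 66 for gamma in place of 50 and 307 for beta/alpha in place of 135. The values of the array file, in which each stands in the row of its gene name, are those used above.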
